A study of Mus musculus with 24 samples.

Results

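Camk2n1, Inhbb, Celsr2 and Camk4 are 4 of 21728 protein-coding genes considered here, and each carried a region of H3K9ac over its transcription start site (TSS) in all 9 libraries outside the scramble control and in none of the 3 scramble libraries. They were chosen by these calls, so the calls are a description and were not tested. A region is a stretch of overlapping peaks merged over the 12 libraries, so a library that calls it need not have a peak on the start itself. Of 11011 regions over a coding TSS, 16 had the same pattern, which is 0.145%, and 11 had the reverse pattern (called in the 3 scramble libraries and in none of the other 9), which is 0.0999%. The 16 regions lie over 17 genes. The count rested on single libraries: it was 34 without scramble replicate 1, 29 without scramble replicate 2 and 39 without CPT1a knockout replicate 3, and 189 when all lists were brought to an equal calling depth. At that equal depth Camk2n1 was called in 8 and Camk4 in 7 of the 9 libraries, so these genes lost the pattern, while Inhbb and Celsr2 were called in 9. None of these settings adds a peak to a scramble list, so scramble calls at the 4 genes could not arise in them.

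H3K9ac is a mark on histone H3, in which lysine 9 carries an acetyl group, and it is found at active promoters and enhancers. The mark was profiled by ChIPmentation, where Tn5 transposase adds sequencing adapters to the precipitated chromatin while it is still on beads. The cells were 4T1, derived from a mouse mammary carcinoma and grown here as spheroids. The spheroids were collected on day 5 in 4 groups of 3 replicates. Scramble (SCR), CPT1a knockout and KAT2a knockout were in medium with 75 µM palmitate. The fourth group was CPT1a knockout in medium with 5 mM acetate, and the labels do not say whether palmitate was also present. A legend of the study describes CPT1a-inhibited spheroids with and without acetate, profiled for H3K9 acetylation, as all grown with palmitate. Per the study's methods, the lines express Cas9 after doxycycline, the control carries a guide against EGFP, and the lines were selected with puromycin; whether a library came from a clone or from mixed edits is not given in the sources used here. The labels do not say whether replicates came from separate cultures, so p-values measure only the spread between these samples.

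The proteins of these genes belong to separate signaling systems. Camk2n1 encodes an inhibitor of the calcium and calmodulin dependent kinase CaMKII, and Camk4 encodes CaMKIV, a related kinase that is activated by the upstream kinases Camkk1 and Camkk2 and phosphorylates the transcription factor CREB in the nucleus. Inhbb encodes the beta B subunit that forms activin B or, with the alpha subunit Inha, inhibin B, which act on the activin receptors. Celsr2 is an atypical cadherin of the planar cell polarity pathway, in which Celsr, Frizzled and Vangl proteins align cells within an epithelium. Peak lists do not measure RNA, so the expression of these genes was not examined.

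To show the bases under these peaks, the 250 bases upstream of the RefSeq start site are given for Inhbb and Celsr2, 5′ to 3′ on the strand of the gene, from RefSeq promoters on GRCm38.p6. The RefSeq start of Inhbb is that of GENCODE vM21, which is used for all other positions, whereas that of Celsr2 lies slightly upstream of the GENCODE start. Both genes are on the minus strand, and capitals mark CpG dinucleotides. The Inhbb window is chr1:119422249-119422498 and the Celsr2 window is chr3:108415580-108415829.
Inhbb: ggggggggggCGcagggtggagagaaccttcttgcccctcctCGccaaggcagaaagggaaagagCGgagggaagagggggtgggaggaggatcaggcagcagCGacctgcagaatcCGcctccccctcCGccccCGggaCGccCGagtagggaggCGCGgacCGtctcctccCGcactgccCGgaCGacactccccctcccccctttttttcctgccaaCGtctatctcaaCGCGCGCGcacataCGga
Celsr2: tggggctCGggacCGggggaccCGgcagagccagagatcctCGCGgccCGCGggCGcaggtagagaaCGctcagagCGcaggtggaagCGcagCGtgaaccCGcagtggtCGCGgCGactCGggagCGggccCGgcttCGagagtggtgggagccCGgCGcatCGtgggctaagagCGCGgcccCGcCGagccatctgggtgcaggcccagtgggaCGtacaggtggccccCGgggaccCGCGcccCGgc
The Inhbb window held 21 CpG dinucleotides at a GC content of 68.0%, and the Celsr2 window held 32 at 75.2%, against medians of 6 and 52.4% over 32817 promoters of this length. In the scramble lists no base of either window was covered by a peak. The Celsr2 window was covered in full in 7 of the other 9 libraries and by 169 and 164 bases in CPT1a knockout replicate 3 and acetate replicate 2. The Inhbb window was covered in full only in KAT2a knockout replicates 1 and 2, and not at all in CPT1a knockout replicate 3.

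Of 8 motifs searched on both strands of these windows, there was 1 match. The GC box GGGCGG lay on the opposite strand from 122 to 117 bases upstream of the Inhbb start, and 32.7% of the promoters held it. The CCAAT box CCAAT (33.8% of promoters), the TATA box TATAAA (12.4%), the cAMP response element core TGACGT (6.46%), the E-box CACGTG (6.02%), the AP-1 site TGANTCA (6.75%), the NRF1 core GCATGCG (3.01%) and the NF-κB consensus (7.25%) had no match in either window. No motif of this list overlapped the GC box in the Inhbb window.

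The 12 lists held 16212 to 34370 peaks. The calling depth, an average number of fragments over each genome position that was recovered from the peak values, was 1.87 to 2.516 in scramble and 0.554 to 1.91 in the other 9 libraries. Calling depth was thus not balanced between groups. It was lowest in CPT1a knockout replicate 3 and CPT1a knockout with acetate replicate 2, at 0.554 and 0.66. Calling depth is in scaled units. By the recovered values, 1 fragment counted as 0.378 in CPT1a knockout replicate 3, 0.747 in scramble replicate 1 and 0.9 to 1 in the other libraries. The low value of CPT1a knockout replicate 3 is therefore not its number of fragments. Fragments at summits are given unscaled. The labels name no batch. Of 12 mammary epithelial marker genes, 11 carried a promoter peak in all 12 libraries, as did 49.5% of all coding genes, while 45.1% had one in no library. Among the 11, the median difference in promoter rank percentile (defined with the tests of neighboring genes) between scramble and the other 9 libraries was -3.41. None passed the exact permutation test after adjustment, and at an unadjusted p under 0.05 none was higher in scramble (13.6% of all genes tested) and 3 were lower (11.3%). These 3, named after their values were seen, were Epcam at 12.7 ± 1.74 against 32.1 ± 13.1, Elf3 at 6.12 ± 1.599 against 14.5 ± 4.58 and Grhl2 at 48.6 ± 22.04 against 93.4 ± 9.54 (SD, n = 3 and 9). Grhl2 overlapped between groups, and Epcam and Elf3 did not. Among all genes tested, 4.51% had all 3 scramble libraries below the other 9 and 8.13% had them above. The part of these marker levels in the calls of the 4 genes was not tested. None of 8 haematopoietic and none of 5 endothelial markers did, although Cd68 had a peak in 2 scramble libraries. Of 6 fibroblast markers, Pdgfra carried a promoter peak in all 12 libraries and Col1a1 in 2 scramble libraries and the other 9.

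The Camk2n1 region lies at chr4:138453583-138455320 (GRCm38, 1738 bp) around the only annotated start of the gene, at position 138454314 on the plus strand. Camk2n1 was called as a single peak in each of the 9 libraries, with a fold enrichment over local background of 5.72 to 13.4. The summit, where most fragments overlap, lay 43 to 218 bp downstream of the start and held 12 to 48 fragments. GENCODE vM21 annotates an untranslated part of an exon at all 9 summits, and all 9 peaks covered the start itself.

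The rank percentile of a peak places its fold enrichment within its own list, from 0 for the weakest to 100 for the strongest. Camk2n1 ranked at 52.0, 48.2 and 31.3 in CPT1a knockout replicates 1 to 3, at 43.6, 38.4 and 53.5 in CPT1a knockout with acetate and at 30.5, 46.8 and 32.3 in KAT2a knockout. The 3 groups overlapped, with means of 43.9 ± 11.02, 45.2 ± 7.69 and 36.5 ± 8.95 (SD, n = 3). The bases covered by its peaks numbered 1078, 1233 and 548 in CPT1a knockout, 1329, 1260 and 1640 with acetate and 754, 841 and 763 in KAT2a knockout. Every acetate library was above the other 6, and the CPT1a and KAT2a knockout libraries overlapped.

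The Camk4 region lies at chr18:32938522-32940533 (2012 bp). It holds 1 of 4 annotated starts of this 256298 bp gene, at position 32939158 on the plus strand. The farthest of the others, 4186 and 4227 bp upstream, had no peak within 1 kb in any library. Camk4 reached a fold enrichment of 5.20 to 11.95 with 15 to 42 fragments at the summit, and its peak was split into a pair of peaks in CPT1a knockout replicate 3 and in acetate replicates 1 and 2. Camk4 ranked at 42.1, 51.3 and 18.0 in CPT1a knockout, at 52.1, 51.8 and 39.2 with acetate and at 32.8, 42.5 and 15.2 in KAT2a knockout. The groups overlapped in rank.

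The summit at Camk4 ranged from 202 bp upstream to 721 bp downstream of the start, a wider span than at the other genes, and lay in an intron in 8 libraries and in a coding exon in 1. In KAT2a knockout the Camk4 peaks began 142, 311 and 152 bp downstream of the start, so no peak of this group covered it, while all 3 CPT1a knockout libraries and 2 of 3 acetate libraries had a peak on it. Camk4 peaks covered 1401, 1950 and 1100 bases in CPT1a knockout, 1683, 1240 and 1814 with acetate and 558, 719 and 724 in KAT2a knockout. The KAT2a knockout libraries were all below the other 6, with a mean of 667 ± 94.4 bp against 1484 ± 431 and 1579 ± 301 bp (SD, n = 3).

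**Figure D1:**
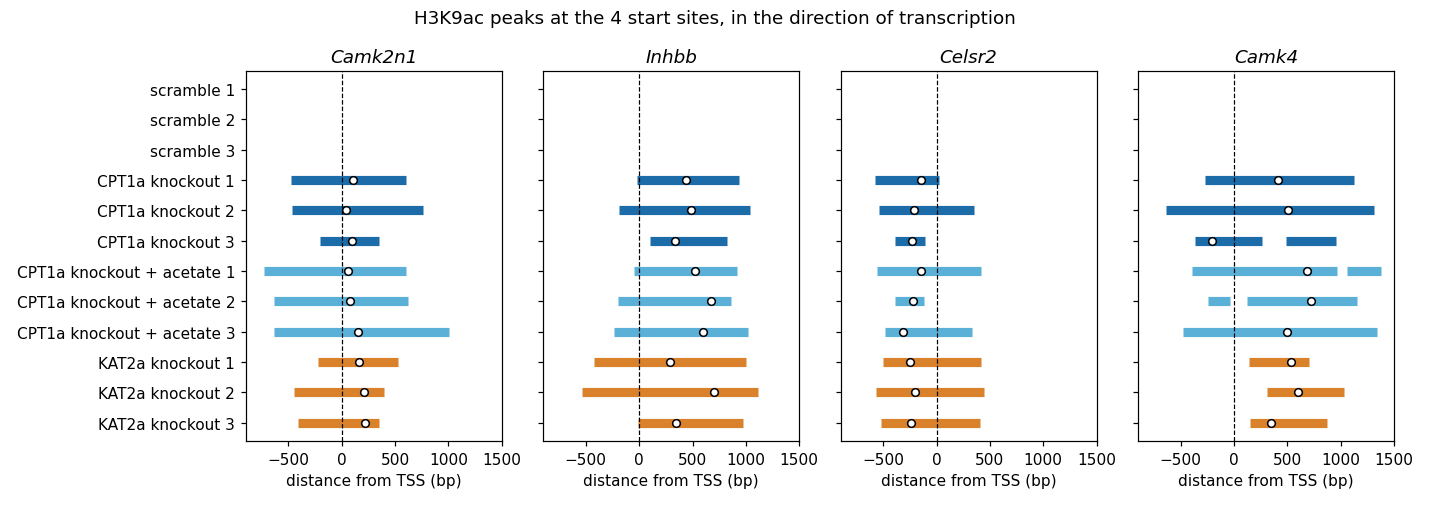
Peaks at the 4 start sites in each of the 12 libraries (rows); the x axis is the distance from the TSS in bp, positive in the direction of transcription, bars are peaks, circles are summits and colors are groups. The 3 scramble rows are empty, and at Camk4 the KAT2a knockout peaks begin 142 to 311 bp downstream of the dashed TSS line.

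The Inhbb region lies at chr1:119421136-119422781 (1646 bp) around the only annotated start, at position 119422248 on the minus strand. Its fold enrichment was 6.86 to 11.4, with 15 to 50 fragments at the summit, and the summit lay 292 to 699 bp downstream of the start, in an untranslated part of an exon in all 9 libraries. Inhbb ranked at 43.6, 46.1 and 21.9 in CPT1a knockout, at 41.6, 39.9 and 51.0 with acetate and at 48.1, 49.0 and 49.1 in KAT2a knockout. The 3 KAT2a knockout values were close to each other, and CPT1a knockout replicate 3 was the lowest of the 9. Covered bases were 960, 1233 and 727 in CPT1a knockout, 970, 1060 and 1260 with acetate and 1431, 1646 and 980 in KAT2a knockout, and the groups overlapped. A peak covered the start in 8 of the 9 libraries, and that of CPT1a knockout replicate 3 began 98 bp downstream of it.

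The Celsr2 region lies at chr3:108415109-108416129 (1021 bp) and holds 1 of 7 annotated starts, at position 108415552 on the minus strand. The other 6, 12963 to 22119 bp away, had no peak within 1 kb in any library. The Celsr2 summit lay 142 to 315 bp upstream of the start, and so outside the gene, in all 9 libraries, while at the other genes all summits were downstream except that of Camk4 in CPT1a knockout replicate 3. Its fold enrichment was 4.76 to 10.2, with 11 to 44 fragments at the summit. Celsr2 ranked at 37.1, 45.8 and 11.4 in CPT1a knockout, at 22.5, 7.41 and 41.7 with acetate and at 43.5, 49.2 and 39.8 in KAT2a knockout. The lowest values, 11.4 and 7.41, were those of CPT1a knockout replicate 3 and acetate replicate 2, which had the lowest calling depth. These libraries also had the shortest coverage, 280 and 275 bp, and held 32 and 11 fragments at the summit. In the other 7 libraries the rank was 22.5 to 49.2 and the covered length 599 to 1016 bp. A peak covered the start in those 7, while the peaks of CPT1a knockout replicate 3 and acetate replicate 2 ended upstream of it.

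Whether the 3 groups with peaks differed in rank or covered length was tested for all 12331 regions called in the 9 libraries, by an exact permutation test of the one-way F statistic over all assignments of the libraries, with Benjamini-Hochberg adjustment over these regions. The call rule did not use this contrast. For rank, the exact p was 0.471 for Camk2n1, 0.354 for Camk4, 0.261 for Inhbb and 0.314 for Celsr2, and the adjusted p was 0.83 to 0.89. For covered length, the exact p was 0.0464 for both Camk2n1 and Camk4, 0.275 for Inhbb and 0.343 for Celsr2, with an adjusted p of 0.775 for all 4. No region passed after adjustment for either measure (0.00% of those tested), and an unadjusted p under 0.05 was found for 749 regions in rank (6.07%) and 442 in length (3.58%). The separation of the KAT2a knockout libraries at Camk4 and of the acetate libraries at Camk2n1 therefore did not pass the test over all regions. The smallest p this design allows is 0.00357.

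**Figure D2:**
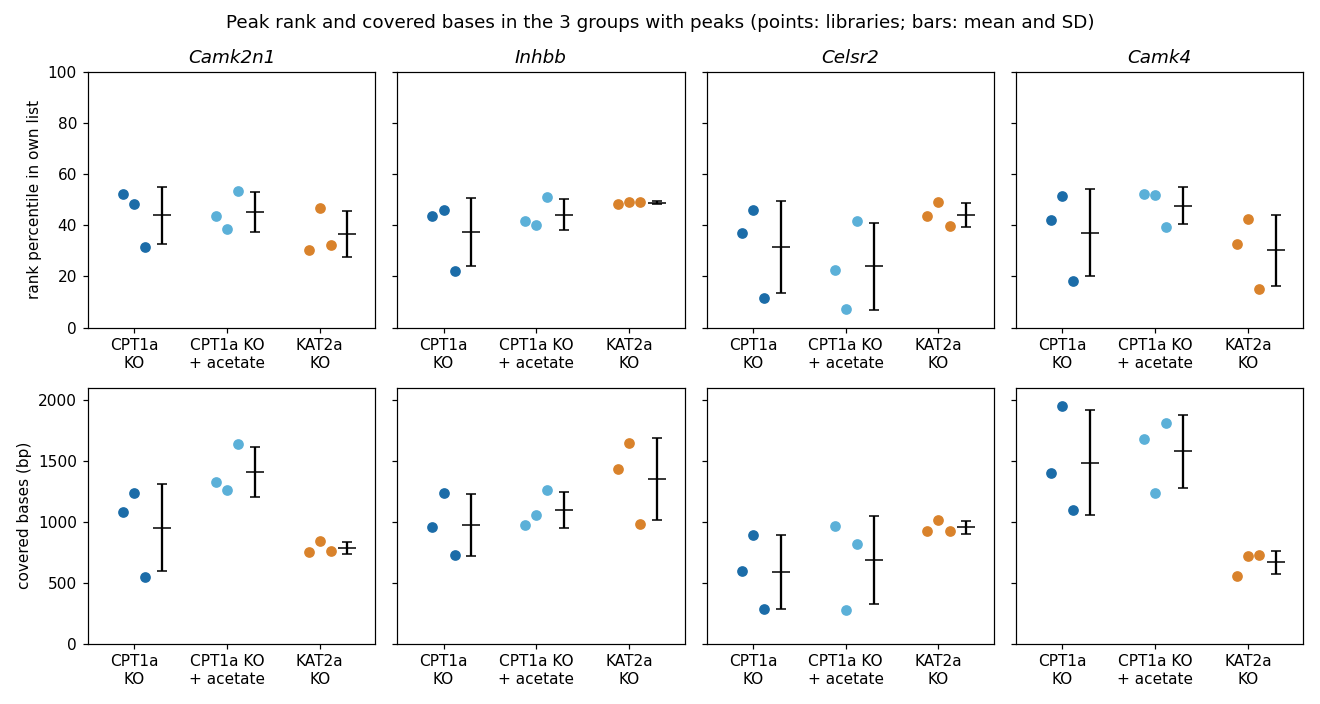
Rank percentile of the peak in its own list (top) and bases covered by peaks in the region in bp (bottom) for the 4 genes in the 3 groups with peaks; points are libraries and black bars the mean and SD of 3. Groups overlap in rank for each gene, while covered length in KAT2a knockout is at most 724 bp at Camk4 against at least 1100 bp in the other 6 libraries.

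The scramble lists hold no value at these start sites, and a region below the calling threshold can still hold acetylation. At the genome-wide background a peak needed a fold enrichment of 3.13 to 3.48 to be called in a scramble library and of 3.20 to 3.96 in the other 9. A higher local background lowers the fold needed. At the highest local background found at each gene in the other 9, scramble would need 2.799 to 2.965 at Camk2n1 and 2.597 to 2.732 at Inhbb. It would need 2.347 to 2.708 at Celsr2 and 2.377 to 2.603 at Camk4. The peaks of the 4 genes were chosen because they passed such a threshold in those 9 libraries, so their fold enrichment does not show how far below the threshold the scramble libraries were.

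The surroundings of each gene held peaks in the scramble lists. The nearest scramble peak to the start was 18079 to 18320 bp away for Camk2n1, 26583 to 26751 bp for Celsr2, 79761 to 80606 bp for Inhbb and 94211 to 96271 bp for Camk4. Within 100 kb of the starts, and outside the regions themselves, the scramble libraries held 2 to 4 peaks near Camk2n1, 1 to 3 near Inhbb, 3 to 5 near Celsr2 and 1 to 3 near Camk4. The other libraries held 2 to 7, 1 to 4, 2 to 4 and 2 to 4. In those 9 libraries the nearest peak outside the region was at a median of 18252 bp for Camk2n1, 27557 bp for Celsr2, 80664 bp for Inhbb and 96296 bp for Camk4. The closest was 1131 bp from the Inhbb start, in KAT2a knockout replicate 1. Every library of every group thus had peaks within 100 kb of each gene outside the regions themselves.

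Along the gene bodies, away from promoter windows of 1 kb around any start, Camk2n1, Celsr2 and Camk4 had no peak in any of the 12 libraries. Inhbb had 1, of 228 bp, in KAT2a knockout replicate 1. With fewer than 3 libraries holding a gene-body peak, none of the 4 genes entered the test of gene-body coverage. Of 3517 genes that did, scramble had more covered bases in 842 (23.9%) and fewer in 12 (0.341%) by the exact permutation test over 220 assignments after adjustment. Without any 1 of the 3 scramble libraries no gene passed in either direction. Fewer assignments then raise the smallest p, so this outcome does not decide whether the 842 genes rest on single libraries. Without CPT1a knockout replicate 3 the count of genes with fewer bases was 26.

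Genes with a TSS within 200 kb were used to ask whether promoters beside the 4 genes also differed between scramble and the other libraries. There were 24, of which 17 had a promoter peak in all 12 libraries, 6 in none, and Sort1, near Celsr2, in 1 scramble and 4 other libraries. None of the 24 had the calls of the 4 genes, and the share of all coding genes with a promoter peak was 49.5% in all 12 libraries and 45.1% in none. Promoters were ranked among 10759 genes whose promoter held a peak in every library, and scramble was compared with the other 9 by a two-sided exact permutation test over 220 assignments. After Benjamini-Hochberg adjustment no gene passed (0.00%), the smallest adjusted p being 0.0539; at an unadjusted p under 0.05, 1462 genes were higher in scramble (13.6%) and 1219 lower (11.3%). Of the 17 neighbors, 3 were higher and 4 lower at that level. This outcome depended on the ranking. With ranks by −log10 p, 1317 genes passed as higher and 1116 as lower in scramble, and at an equal calling depth 680 and 481. Among those that passed in both settings were Mul1, Pink1, Epb41l5, Psma5, Tslp, Camkk2 and Acvr1b, with an adjusted p of 0.0264 by −log10 p and 0.0399 at equal depth, and likewise Crtc3 and Fzd7. Wdr36, Ppp3cb and Dvl1 (adjusted p = 0.0264) and Camkk1, Acvr2a and Acvr2b (adjusted p = 0.0402), and the markers Grhl2 (0.0264) and Elf3 (0.0402), passed the exact permutation test by −log10 p alone. The values that follow are from the ranking by fold enrichment.

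The neighbors of Camk2n1 and Inhbb with the smallest p ranked lower in scramble. Mul1, a mitochondrial ubiquitin ligase whose start is 19591 bp from that of Camk2n1, ranked at 10.8, 24.4 and 28.3 in the scramble libraries and at 39.2 to 89.8, with a median of 72.2, in the other 9. Its ranks did not overlap between groups, with means of 21.2 ± 9.20 (SD, n = 3) and 71.4 ± 15.7 (SD, n = 9) and an exact p of 0.00455 (adjusted p = 0.0539). Pink1, a kinase that marks damaged mitochondria for removal, is 128007 bp from Camk2n1 and ranked at 4.201, 5.77 and 6.27 in scramble. In the other 9 it ranked at 18.9 to 50.3 around a median of 29.8 (exact p = 0.00455, adjusted p = 0.0539). Cda, a cytidine deaminase gene 86322 bp away, ranked at 6.80 ± 4.96 in scramble and 6.27 ± 6.11 in the others (exact p = 0.905).

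Near Inhbb, Epb41l5 ranked at 20.3, 21.0 and 19.9 in scramble and at 20.5 to 46.5 in the others, with a median of 40.4 (exact p = 0.00909, adjusted p = 0.0765). Tmem185b was among the weakest promoters in every library and ranked at 0.764 ± 0.271 in scramble against 3.55 ± 1.93 (exact p = 0.0318, adjusted p = 0.146). Ralb, a small GTPase gene and the nearest neighbor of Inhbb, ranked at 39.9 ± 6.39 and 48.1 ± 14.6 (exact p = 0.405), and its groups overlapped.

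Both neighbors of Camk4 had higher ranks in scramble. Tslp, an epithelial cytokine gene 122298 bp from the Camk4 start, ranked at 99.2, 98.2 and 87.8 in scramble and at 38.6 to 63.8 in the others, with a median of 53.6 (exact p = 0.00455, adjusted p = 0.0539). Wdr36, at 86051 bp, ranked at 99.7, 97.6 and 99.1 in scramble and at 71.8 to 95.5 in the others (exact p = 0.0136, adjusted p = 0.0949). Neither overlapped between groups, as was the case for 875 genes with scramble above (8.13%) and 485 with scramble below (4.51%) among all those tested.

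Near Celsr2 the 3 nearest tested promoters overlapped between groups. Psrc1, 29487 bp away, ranked at 2.56 ± 1.47 in scramble and 1.74 ± 2.59 in the others (exact p = 0.7). Sars, a seryl tRNA synthetase gene 29591 bp away, ranked at 73.7 ± 7.28 and 63.98 ± 16.95 (exact p = 0.373). Tmem167b ranked at 73.4 ± 13.1 and 69.6 ± 10.5 (exact p = 0.586). Psma5, a proteasome subunit gene 146677 bp away that was singled out after its values were seen, ranked at 95.8, 98.6 and 92.4 in scramble and at 58.0 to 86.6 in the others (exact p = 0.00909, adjusted p = 0.0765).

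**Figure D3:**
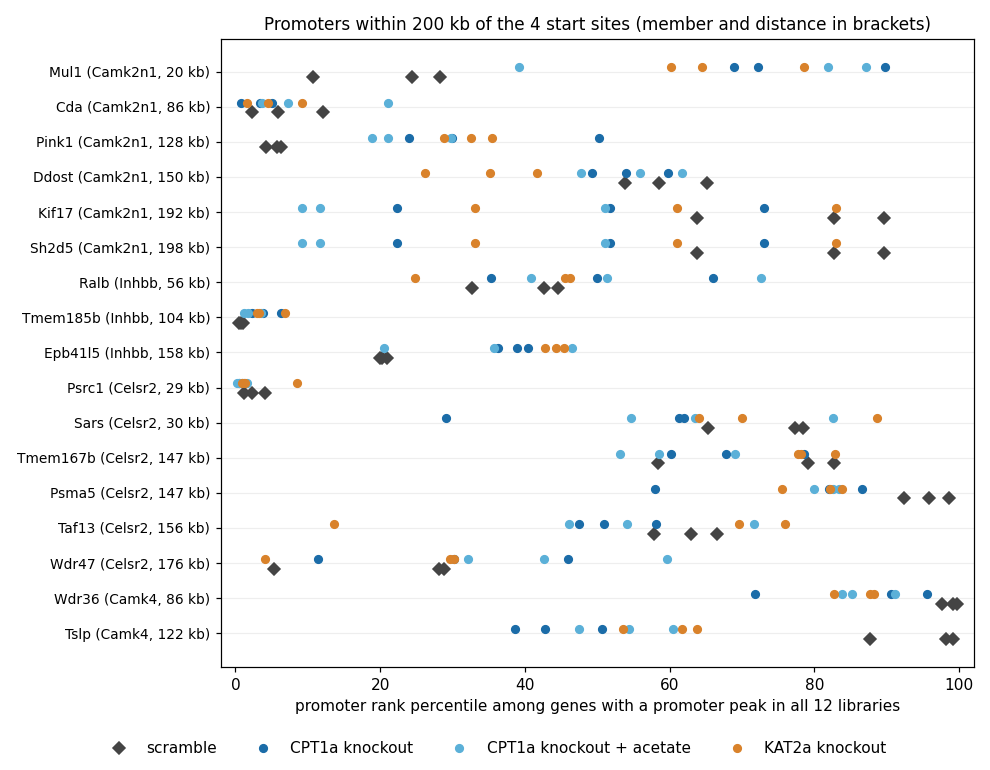
Promoter rank percentile (x axis) of the 17 genes within 200 kb of the 4 start sites that had a promoter peak in all 12 libraries; diamonds are scramble libraries and circles the other 9, with the gene of interest and the distance in kb in brackets. Scramble lies below the other libraries at Mul1, Pink1 and Tmem185b and above them at Psma5, Wdr36 and Tslp; Kif17 and Sh2d5 share the same strongest peak.

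Paralogs and partners of the 4 genes were examined on lists of their pathways. Of 27 CaM kinase genes, 19 had a promoter peak in all 12 libraries (49.5% of all coding genes) and 5 in none (45.1%), and Camk2n1 and Camk4 were the only members called in all 9 other libraries and in no scramble library. None of the 19 passed after adjustment. At an unadjusted p under 0.05, 1 was higher in scramble, the calcineurin subunit gene Ppp3cb, against 13.6% of all genes tested. At that level 3 were lower, against 11.3%: Camkk1, Camkk2 and the CREB coactivator gene Crtc3. Ppp3cb and Crtc3 were singled out after their values were seen. The median difference between scramble and the others was -6.17 percentiles for the list and -0.046 for all genes tested.

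The other CaMKII inhibitor gene, Camk2n2, ranked high in all groups, at 86.8 ± 2.18 in scramble (SD, n = 3) and 79.6 ± 17.1 in the others (SD, n = 9; exact p = 0.509). The CaMKII subunit genes Camk2d and Camk2g ranked at 93.3 ± 10.04 and 23.4 ± 8.41 in scramble and at 86.8 ± 15.7 and 32.5 ± 14.9 in the others (exact p = 0.532 and 0.336). Camkk1 and Camkk2, the kinases upstream of CaMKIV, both had lower mean ranks in scramble. Camkk1 had a mean of 0.229 ± 0.102 against 10.4 ± 5.82 (exact p = 0.0273, adjusted p = 0.135), and Camkk2 of 47.6 ± 22.7 against 79.5 ± 13.3 (exact p = 0.0136, adjusted p = 0.0949). The Camkk2 difference was -41.4 to -19.3 percentiles when single libraries were left out. Camk1, a further kinase of this cascade, ranked at 54.5 ± 29.8 and 57.6 ± 22.6 (exact p = 0.855).

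Of 26 activin and inhibin genes, 15 had a promoter peak in all 12 libraries (49.5% of all coding genes). In no library were 8 called (45.1%), among them the inhibin alpha gene Inha. None passed after adjustment. At an unadjusted p under 0.05, 2 were higher in scramble (13.6% of all genes tested) and 5 lower (11.3%), and the median difference was -5.58 percentiles. Inhba, the beta A paralog of Inhbb, was called in all 12 libraries and ranked at 15.6 ± 6.001 in scramble and 8.16 ± 4.49 in the others (exact p = 0.0455, adjusted p = 0.182). Among the receptors, the type I receptor gene Acvr1b ranked at 35.9 ± 13.4 against 75.02 ± 13.6 (exact p = 0.00455, adjusted p = 0.0539). All 3 scramble libraries were below the other 9, as at 4.51% of all genes tested. The type II receptor genes lay on opposite sides, Acvr2b at 16.5 ± 1.73 against 41.5 ± 14.9 (exact p = 0.0182, adjusted p = 0.11) and Acvr2a at 55.9 ± 9.76 against 34.7 ± 10.04 (exact p = 0.00909, adjusted p = 0.0765). Fst, which encodes the activin antagonist follistatin, had a promoter peak in 3 scramble and 8 other libraries and was not tested.

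Of 27 planar cell polarity genes, 13 had a promoter peak in all 12 libraries (49.5% of all coding genes) and 8 in none (45.1%). None of the 13 passed after adjustment, 1 was higher (13.6% of all genes tested) and 1 lower (11.3%) in scramble at an unadjusted p under 0.05, and the median difference was -1.66 percentiles. These were the receptor gene Fzd7, at 64.6 ± 7.22 in scramble against 26.1 ± 15.8 (exact p = 0.00455, adjusted p = 0.0539), and Dvl1, at 39.4 ± 13.6 against 65.7 ± 16.9 (exact p = 0.0318, adjusted p = 0.146), both singled out after their values were seen. The paralogs of Celsr2 had other calls, with Celsr1 in 3 scramble and 8 other libraries and Celsr3 in no library. Of the Vangl genes, Vangl2 was called in 3 scramble and 6 other libraries and Vangl1 in all, at 36.5 ± 6.35 against 59.1 ± 25.8 (exact p = 0.164). Fzd6 ranked at 65.8 ± 26.9 and 85.9 ± 15.2 (exact p = 0.0591). Its difference was -32.1 to -5.57 percentiles when single libraries were left out.

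**Figure D4:**
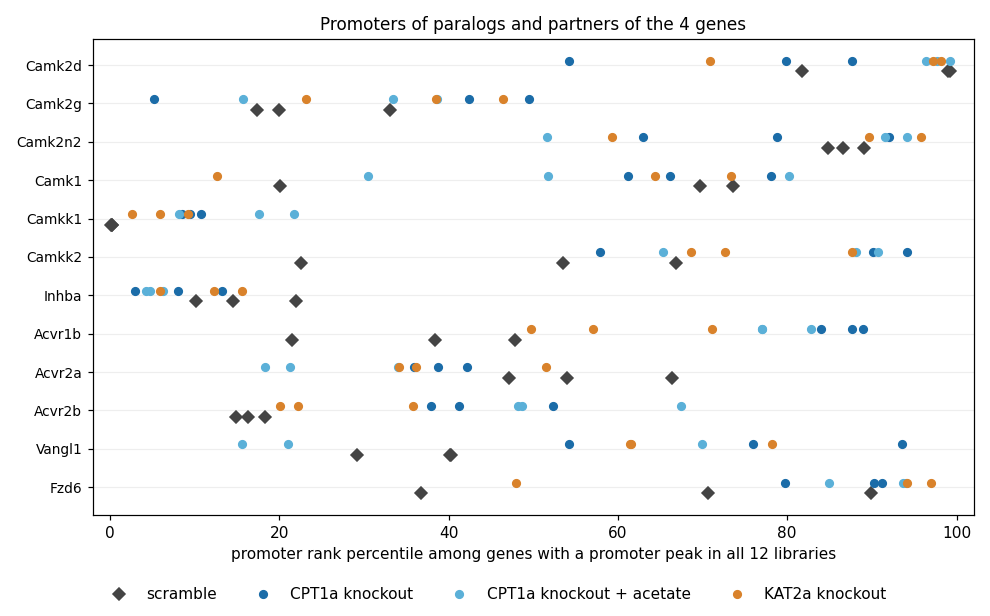
Promoter rank percentile (x axis) of 12 paralogs and partners with a promoter peak in all 12 libraries; diamonds are scramble libraries and circles the other 9. Scramble lies below the other libraries at Camkk1, Acvr1b and Acvr2b, and the groups overlap at the other genes.

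The 10 genes of the shared call pattern with the highest mean rank over the 9 libraries were Eif3j2 (44.3), Inhbb (43.4), Tpm3-rs7 (41.9), Camk2n1 (41.9), Arhgap33 (41.04), Camk4 (38.3), Akap17b (37.9), Eda (35.3), Cmpk2 (34.97) and Celsr2 (33.2). The regions of Eif3j2 and Tpm3-rs7 were 347 and 380 bp wide, against 1021 bp or more for the 4 genes. Both genes have related copies elsewhere in the genome, and reads shared with those copies were not measured here. Just outside the rule, 34 regions were called in all 9 libraries and in 1 scramble library, led by Rapgefl1, Eid2b and Batf3 at mean ranks of 49.6, 47.98 and 47.4. A further 30 were called in 8 of the 9 and in no scramble library, led by Kif26b, Epb41l4a and Hmox2 at 39.7, 39.01 and 38.9.

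GC content, which the rule did not use, was high at all 4 starts. In a window of 500 bp on each side of the start it was 69.6% for Camk2n1, 67.8% for Inhbb, 71.7% for Celsr2 and 66.7% for Camk4, with 83, 91, 100 and 82 CpG dinucleotides. Of the 9761 TSS regions called in all 12 libraries, 91.7%, 87.4%, 95.2% and 84.3% had a lower GC content, and their median was 58.9%. The 16 regions of the shared pattern had a median of 65.98%, those called in 9 and 1 of 64.1% (n = 34), those called in 8 and 0 of 61.5% (n = 30), and those with the reverse pattern of 43.8% (n = 11). Over the whole regions, whose widths differ, the GC content was 71.5%, 71.6% and 72.3% for Camk2n1, Inhbb and Celsr2 and 56.6% for Camk4. The part of GC content in the calls was not tested.

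**Figure D5:**
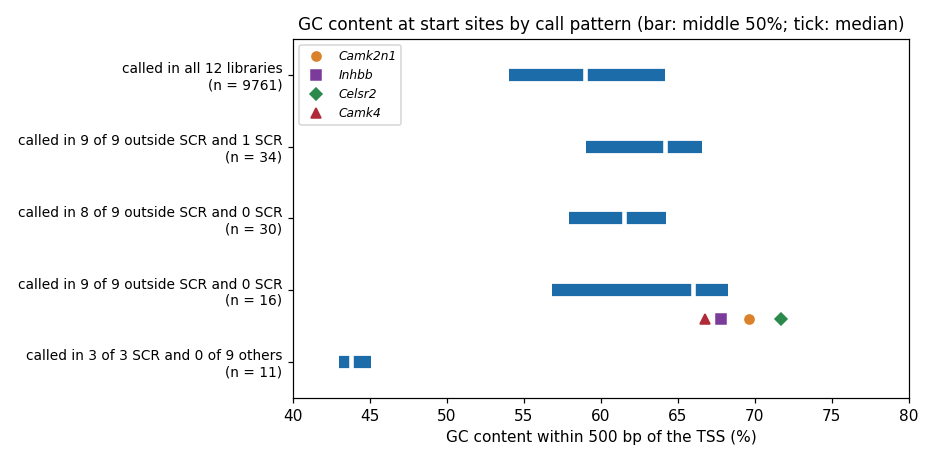
GC content in % within 500 bp of the TSS (x axis) by call pattern; bars span the middle 50% of regions, white ticks are medians and symbols are the 4 genes. The 4 genes lie between 66.7% and 71.7%, above the median of 58.9% of regions called in all 12 libraries, and the regions called in scramble alone have a median of 43.8%.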

How the data were processed

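H3K9ac peak lists of 12 libraries were analyzed, from 24 samples in the series; the 12 inputs have no peak list here. Per the labels and the study's methods, the reads were aligned to mm10 (GRCm38). The submitters' processing notes name Bowtie2, SAMtools, deepTools and MACS2, while the methods name BWA and removal of duplicates with Picard. The caller settings and the use of the inputs are not given in the sources used here. The antibody is named with different catalogue numbers in the labels and the methods. The authors made 1 list per library, without pooling. The deposited fold enrichment is a ratio of summit pileup to local background. The deposited −log10 p and −log10 q values and the deposited score, which follows from q, rank peaks within a list. The methods state that Drosophila chromatin was spiked in. Whether the authors used it to scale between libraries is not given in the sources used here. It was not used in the ranks here, so total H3K9ac was not measured.

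The 4 genes, the gene lists and the tests were chosen with earlier results of these data known. Peaks on chromosomes 1 to 19 and X were merged over libraries (1 bp of overlap) into 38586 regions and assigned to GENCODE vM21 TSSs. Ranks are percentiles of fold enrichment within a list for regions, and within 10759 genes for promoters (strongest peak within 1 kb of any TSS). Pileup, background and calling depth were recovered from fold enrichment and p by inverting the MACS2 formulas for peaks with a −log10 p below 300; fragments were taken as whole within 0.02, which held for at least 99.9% of peaks. This inversion and the permutation tests were tested on simulated data. Tests were exact permutation tests (smallest p of 0.00357 for 3 groups of 3 and 0.00455 for 3 against 9), with Benjamini-Hochberg adjustment and a threshold of 0.05. Named genes were the 4 genes, the nearest 3 neighbors within 200 kb with a promoter peak in all libraries, preset paralogs and partners, the 10 highest ranked genes of the shared pattern and 3 each just outside the rule; exceptions are stated. Alternatives were an equal calling depth of 0.55 in scaled units (peaks with a −log10 p of at least 5), stricter or merged peaks and ranking by −log10 p. Others were percentiles among regions called in all 9 libraries, other windows, a replicate block and leaving out each library. RefSeq promoters were given for 2 of the 4 genes. Python 3.11.15, numpy 2.4.6, pandas 2.3.3, scipy 1.17.1 and matplotlib 3.10.9 were used.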

Additional observations from a re-analysis of the deposited data

Results flagged for a closer look

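The 4 labelled groups hold 3 libraries each, too few to test for a library that stands apart, so the 9 libraries outside scramble were examined as 1 group for 45 values, of which 10 had a highest or lowest library farther from the rest than Dixon's limit. Chance alone is expected to mark about 1 in 20. For the 4 genes, the Inhbb rank percentile of 21.9 in CPT1a knockout replicate 3 lay below the other 8, which were 39.9 to 51.0. The 228 covered gene-body bases of Inhbb in KAT2a knockout replicate 1 stood against 0 in the other 8.

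Among neighboring promoters, the rank percentile of Cda was 21.0 in acetate replicate 3 against 0.809 to 9.16 in the other 8. That of Epb41l5 was 20.5 in acetate replicate 2 against 35.7 to 46.5. Psma5 ranked at 58.0 in CPT1a knockout replicate 1 against 75.5 to 86.6, Psrc1 at 8.56 in KAT2a knockout replicate 3 against 0.186 to 1.53, and Taf13 at 13.6 in KAT2a knockout replicate 2 against 46.1 to 75.95. Among partners, Fzd6 ranked at 47.9 in KAT2a knockout replicate 3 against 79.7 to 96.9, and Dvl1 at 25.9 in KAT2a knockout replicate 1 against 57.1 to 83.5. The epithelial marker Elf3 ranked at 25.0 in CPT1a knockout replicate 3 against 9.82 to 17.02.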

How the results depend on the processing

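The number of TSS regions with the shared call pattern, 16 as reported, was 189 at an equal calling depth of 0.55 and 16 to 39 when single libraries were left out. Where peaks had to cover a share of 0.5 of the region, 5 (Camk2n1), 8 (Inhbb), 7 (Celsr2) and 6 (Camk4) libraries called it; at equal depth Camk2n1 kept 8 and Camk4 kept 7, and with a −log10 q of at least 5 Celsr2 kept 8. For rank and covered length among the 3 groups no region passed in any of 13 alternatives each, and the adjusted p of the 4 genes was at least 0.414. The exact p for covered length was 0.00714 to 0.164 at Camk2n1 and 0.0107 to 0.139 at Camk4. For rank it was 0.0429 to 0.779 at Camk2n1, 0.0107 to 0.543 at Celsr2, 0.0278 to 0.575 at Camk4 and 0.139 to 0.857 at Inhbb. The lowest rank p came with percentiles among regions called in all 9 libraries (Camk2n1, Celsr2) and with the replicate block (Camk4). At equal depth Camk2n1 and Camk4 were not called in all 9 libraries and have no value.

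For promoter rank in scramble against the other 9, no gene passed as reported or in 15 of 17 alternatives, leaving out each library included (0 to 0 genes); with ranks by −log10 p 1317 were higher and 1116 lower, and at equal depth 680 and 481. Of 36 named genes, 17 passed by −log10 p and 9 at equal depth. Differences of the named genes changed sign in 7 instances, none past the threshold: Camk2n2 (-0.059) and Cda (-0.516) by −log10 p, and, with single libraries left out, Camk1 (range -12.7 to 14.05), Tmem167b (-0.769 to 11.3), both without scramble replicate 1, and Cda (-2.14 to 2.77), without scramble replicate 2, CPT1a knockout replicate 1 or KAT2a knockout replicate 3. Gene-body coverage was higher in scramble for 395 genes by number of peaks, 0 with the replicate block and 200 at equal depth, against 842, and lower for 1, 0 and 33, against 12; leaving out libraries gave 0 to 948 and 0 to 26. With the block or with 2 scramble libraries, fewer assignments raise the smallest p; other causes were not tested.

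The replicate numbers did not pair libraries: deviations of 18 same-numbered pairs correlated at -0.19 to 0.146, of 36 other pairs at -0.207 to 0.223. With the replicate number as a block, no region passed among the 3 groups and no promoter passed. Nor did any gene pass for gene-body coverage (0 higher, 0 lower). Assignments within blocks are fewer, which raises the smallest p, so these outcomes do not decide whether differences hold within replicate numbers. Depth is known only as recovered calling depth; below-threshold signal, and so the size of any difference from scramble at the 4 genes, cannot be read from peak lists.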
